A study of Mus musculus with 2 samples.

Results

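The mitochondrial oxidation of fatty acids and the synthesis of ketone bodies were followed through 8 enzyme genes of the mouse liver: Cpt1a, Cpt2, Acadvl, Acadl, Acadm, Hadha, Hadhb and Bdh1. The genes were chosen by name, each symbol matched 1 row of the count tables of both sections, and the 8 rows stood among 32285 gene rows. Gene expression was measured in place with Visium spatial transcriptomics, in which a frozen tissue section 10 µm thick lies on a grid of barcoded spots and each captured RNA molecule is counted by its unique molecular identifier (UMI). Liver of 1 mouse on the normal chow diet (NCD) and of 1 mouse on the high-fat diet (HFD) gave 1 section each. The mice were male C57BL/6J, bought at 5 weeks of age, and had 1 week of acclimation. The HFD held 60% fat and was fed for 14 weeks to bring on non-alcoholic fatty liver disease (NAFLD), after which mice of both diets received distilled water by mouth for 8 weeks. The livers were perfused before collection, and whether the animals were fed or fasted at collection is not given in the sources used here. With 1 section per diet no test was possible, and diet, animal, section and slide cannot be told apart. Every interval below is a 95% interval for counting error alone.

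Fatty acids are activated to acyl-CoA outside the mitochondrial matrix and carried in by the carnitine shuttle, of which Cpt1a, on the outer membrane, is the regulated step. In the matrix, chain-length-specific dehydrogenases and the trifunctional protein shorten the chain to acetyl-CoA, which the liver, unlike most tissues, can turn into ketone bodies for export. Hepatocyte functions are graded along the lobule from the portal triad to the central vein, and the nuclear receptor Ppara drives many genes of this pathway in the liver.

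The tissue in both sections was hepatocyte-rich. The 6 hepatocyte markers, led by Alb (albumin), made up 107442 counts per 1000000 UMIs (CPM) in the NCD section and 121159 CPM in the HFD section. The labels also name the samples as immune cells of a stem cell line, whereas markers of B and T cells summed to 37.8 CPM in NCD and 15.1 CPM in HFD, and 4 macrophage markers to 75.5 and 99.3 CPM. A spot can hold several cells of different types, and fewer cells of a type and less RNA per cell cannot be told apart in such counts.

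The sections differed in depth. The NCD section held 29037988 UMIs in 3692 spots over tissue, with a median of 4187.5 UMIs per spot and 840 spots under 1000 UMIs. The HFD section held 72118803 UMIs in 3594 spots, with a median of 18549 and 4 spots under 1000. Levels are therefore given as CPM of the pooled UMIs of a group of spots, and ratios on the log2 scale.

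Lobule position was taken from 8 pericentral and 5 periportal marker genes, none of them among the 8 enzymes. Each spot with at least 1000 UMIs and at least 10 UMIs of these markers was ranked by the pericentral share and the ranks were cut into 3 zones of equal size, named portal, middle and central. In NCD 2643 spots were placed, 881 in each zone, and in HFD 3583, with 1195, 1194 and 1194. Separate markers that played no part in the ranking followed the zones: from the portal to the central zone 8 further pericentral genes went from 1257 to 4833 CPM in NCD and from 523 to 1940 CPM in HFD, and 8 further periportal genes went from 10453 to 6228 CPM and from 8175 to 4887 CPM. The zones are ranks within a section and not distances. The pericentral ranking markers summed to 11252 CPM in NCD and 6499 CPM in HFD, and the periportal ones to 1299.5 and 1254 CPM. The central zone began at a pericentral share of 0.960 in NCD and 0.917 in HFD, so zones of the same name need not match in position.

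Some sequence at the starts of these genes is shown as a description. Hadha and Hadhb, which encode the alpha and beta subunits of the mitochondrial trifunctional protein, lie head to head on chromosome 5 (GRCm38, GENCODE annotation): Hadha at chr5:30118304-30155162 on the minus strand and Hadhb at chr5:30155248-30184593 on the plus strand, with 85 bases between their starts. The RefSeq windows from 250 bases before to 50 bases after each gene start (GRCm38.p6) overlapped by 228 bases. The Hadhb window, chr5:30155003-30155302, plus strand, is printed 5′ to 3′ with the bases shared with the Hadha window in capitals.
Hadhb: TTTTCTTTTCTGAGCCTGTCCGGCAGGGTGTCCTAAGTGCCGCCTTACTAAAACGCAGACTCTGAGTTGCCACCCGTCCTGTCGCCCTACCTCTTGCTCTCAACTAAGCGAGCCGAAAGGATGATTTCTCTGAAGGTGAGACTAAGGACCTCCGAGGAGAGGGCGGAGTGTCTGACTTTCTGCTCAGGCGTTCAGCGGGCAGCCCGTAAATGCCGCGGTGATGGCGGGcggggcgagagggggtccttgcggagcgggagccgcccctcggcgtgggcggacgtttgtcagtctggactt
The other members are protein-coding genes on chromosomes of their own in the same annotation: Cpt1a at chr19:3322334-3385733 (plus strand), Cpt2 at chr4:107903981-107923610 (minus strand), Acadvl at chr11:70010183-70015411 (minus strand), Acadl at chr1:66830839-66863277 (minus strand), Acadm at chr3:153922357-153944632 (minus strand) and Bdh1 at chr16:31422280-31458901 (plus strand). The Cpt1a window was set on the RefSeq start, lies downstream of the GENCODE start given above and does not hold it. The windows of the members were searched on both strands for AGGTCA, the hexamer that Ppara and many other nuclear receptors recognise. The letters occurred once in the windows of Cpt1a, Acadvl and Acadm, were not in those of the other 5 members, and occurred in 16.3% of 32851 windows of all genes. The windows of Cpt1a (chr19:3323051-3323350, plus strand) and Acadm (chr3:153944594-153944893, minus strand), chosen for the Cpt1a gradient and the Acadm diet ratio described below, are printed 5′ to 3′ with the hexamer, read on the opposite strand as TGACCT, in capitals.
Cpt1a: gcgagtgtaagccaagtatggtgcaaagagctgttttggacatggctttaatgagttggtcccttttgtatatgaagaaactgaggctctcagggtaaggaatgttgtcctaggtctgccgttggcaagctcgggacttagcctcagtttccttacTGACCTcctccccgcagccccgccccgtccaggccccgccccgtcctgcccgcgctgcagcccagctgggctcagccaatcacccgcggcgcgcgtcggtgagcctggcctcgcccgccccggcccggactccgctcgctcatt
Acadm: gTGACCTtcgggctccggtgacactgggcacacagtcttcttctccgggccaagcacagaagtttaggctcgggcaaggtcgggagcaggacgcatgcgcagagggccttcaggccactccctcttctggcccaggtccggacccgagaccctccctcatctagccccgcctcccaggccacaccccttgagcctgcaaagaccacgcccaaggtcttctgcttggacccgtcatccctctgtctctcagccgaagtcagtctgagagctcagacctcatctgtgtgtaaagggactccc
The direct repeat AGGTCANAGGTCA was in none of the 9 windows of the 8 members, 2 of them of Bdh1, and in 0.0396% of all windows. Acadvl, whose window held the hexamer, had a log2 ratio of HFD over NCD of -0.27. Bdh1, which held it in neither window, had the highest ratio of the members, 0.81. Any link between the hexamer and the diet ratios given below was not tested. A match of letters is a description and not a measured binding site.

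Across all tissue spots, the 8 genes together held 1940 CPM in NCD (95% interval 1924 to 1956) and 2224 CPM in HFD (2213 to 2235), which is 0.194% and 0.222% of all UMIs. Their summed log2 ratio of HFD over NCD was 0.20 (0.18 to 0.21), close to the median of 0.19 over the 6422 genes that had at least 1000 UMIs in both sections together. The members did not move as a block. Bdh1 stood highest, Acadm and Hadhb stood above the median gene, Cpt1a, Hadha and Acadl below it, and Cpt2 and Acadvl were lower in HFD than in NCD. The median over the 8 members was 0.11. Among the 6422 genes, 19.1% were at least 1.5-fold higher in HFD and 4.13% at least 1.5-fold lower, and among the 8 members 1 was higher by that rule (Bdh1) and 0 were lower. Relative to the median gene, 11.4% of all genes were higher and 8.21% lower by the same fold, Bdh1 still passed with 0.61, and Cpt1a (-0.09), Hadha (-0.08) and Acadl (-0.17) turned from just above to just below 0. With CPM averaged over spots rather than pooled, Bdh1 stood at 0.55, under the fold, and 0 members were higher by it.

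**Figure D1:**
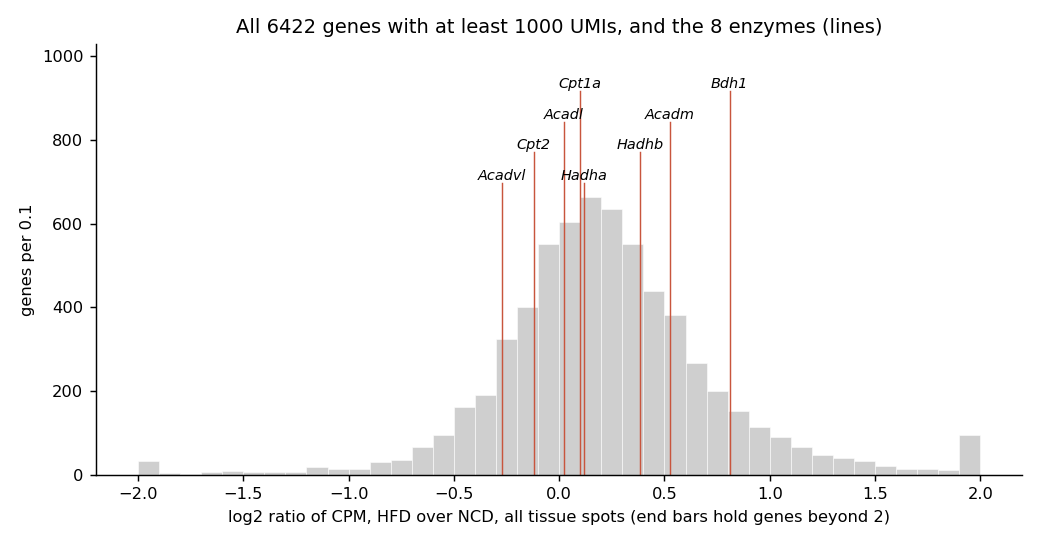
Histogram of the log2 ratio of CPM, HFD over NCD, for 6422 genes, with 1 vertical line for each of the 8 enzymes and the end bars holding the 117 genes beyond 2. The enzymes spread from Acadvl at -0.27 to Bdh1 at 0.81 around the median gene at 0.19.

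The carnitine shuttle was represented by Cpt1a, which links long-chain acyl groups to carnitine at the outer membrane, and Cpt2, which returns them to CoA at the inner membrane. Cpt1a measured 268 CPM in NCD and 287 CPM in HFD, a log2 ratio of 0.10 (0.06 to 0.14). Cpt2 measured 176 and 162 CPM, a log2 ratio of -0.12 (-0.17 to -0.07). The sections thus differed little in either gene, with opposite signs. The UMI ratio of Cpt1a to Cpt2, whose absolute value also depends on how well each transcript is captured, was 1.53 in NCD and 1.78 in HFD, a difference of 0.22 on the log2 scale (0.16 to 0.28). This difference was not even across the lobule: it was -0.05 (-0.17 to 0.06) in the portal zone and 0.41 (0.30 to 0.52) in the central zone.

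The acyl-CoA dehydrogenases open each round of beta-oxidation, and the 3 members act on chains of different length: Acadvl on very long chains, Acadl on long chains and Acadm on medium chains. Acadvl measured 351 CPM in NCD and 291 CPM in HFD, a log2 ratio of -0.27 (-0.30 to -0.24). Acadl measured 204 and 207 CPM, a log2 ratio of 0.02 whose interval (-0.02 to 0.07) holds 0. Acadm measured 354 and 509 CPM, a log2 ratio of 0.53 (0.49 to 0.56). The very-long-chain enzyme was thus lower and the medium-chain enzyme higher in HFD. Acads, the short-chain enzyme of the family and not a member, lay between Acadl and Acadm with 176 and 208 CPM (0.24, interval 0.20 to 0.29). The UMI ratio of Acadm to Acadvl went from 1.01 in NCD to 1.75 in HFD, and that of Acadm to Acadl from 1.73 to 2.46. These shifts were 0.80 (0.75 to 0.84) and 0.51 (0.45 to 0.56) on the log2 scale and do not depend on the total by which CPM is scaled. Of all 6422 genes, 77.7% had a lower ratio than Acadm and 12.2% a lower ratio than Acadvl.

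The trifunctional protein carries out the remaining steps on long chains: Hadha encodes the hydratase and hydroxyacyl-CoA dehydrogenase activities and Hadhb the thiolase. Hadha measured 258 CPM in NCD and 280 CPM in HFD, a log2 ratio of 0.12 (0.08 to 0.16). Hadhb measured 198 and 258 CPM, a log2 ratio of 0.38 (0.34 to 0.43). Of these neighbours with overlapping promoter windows, Hadhb differed more between the sections than Hadha did. The UMI ratio of Hadha to Hadhb was 1.31 in NCD (1.26 to 1.35) and 1.08 in HFD (1.06 to 1.11), a difference of -0.27 (-0.32 to -0.21) on the log2 scale. It widened toward the central vein, from -0.16 (-0.26 to -0.05) in the portal zone to -0.23 (-0.32 to -0.13) in the middle and -0.41 (-0.51 to -0.31) in the central zone. In NCD the ratio was higher centrally (1.24, 1.29 and 1.39 from portal to central), whereas in HFD it was 1.11, 1.10 and 1.05.

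Bdh1 interconverts acetoacetate and 3-hydroxybutyrate, the last step of hepatic ketone body synthesis. It measured 131 CPM in NCD (127 to 135) and 230 CPM in HFD (226 to 233), a log2 ratio of 0.81 (0.76 to 0.86) or 1.75-fold, and 89.3% of all genes had a lower ratio. Its share of the UMIs of the 8 members was 6.76% in NCD and 10.3% in HFD, while that of Acadvl was 18.1% and 13.1%. After every spot was thinned to 3000 UMIs, 35.1% of 2107 NCD spots (33.0% to 37.2%) and 50.8% of 3538 HFD spots (49.1% to 52.5%) held a Bdh1 UMI, with 1585 and 56 shallower spots left out. Unthinned, the shares were 47.0% and 93.7%. In spots off tissue, thinned alike, they were 32.0% of 741 spots in NCD and 51.4% of 142 spots in HFD (42.9% to 59.9%), with 559 and 1256 shallower spots left out, so at this depth the shares over tissue did not exceed those off tissue beyond counting error. Thinned to 1000 UMIs, the shares over and off tissue were 12.6% and 12.0% in NCD, within counting error, and 20.5% (19.2% to 21.9%) and 13.9% (11.6% to 16.5%) in HFD.

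The depth of a spot moved with the levels in NCD. From NCD spots under 1000 UMIs to those with at least 10000, Acadm went from 737 to 335 CPM, Bdh1 from 189 to 124 CPM and the 8 genes together from 2671 to 1887 CPM. In HFD, where 4 spots lay under 1000 UMIs, the 8 genes together measured 1951 CPM in spots of 1000 to under 3000 UMIs and 2227 CPM in those with at least 10000. Averaging CPM per spot, which gives shallow spots full weight, brought the ratio of the 8 genes together to -0.00, that of Acadm to 0.11 and that of Bdh1 to 0.55. With spots under 1000 UMIs left out of that average, a setting added after the data were seen, the ratios were 0.13, 0.40 and 0.71. Red blood cell markers also differed, at 6676 CPM in NCD and 1246 CPM in HFD. Stellate cell markers summed to 45.3 CPM in NCD and 133 CPM in HFD, of which the collagen gene Col3a1 held 14.1 and 93.8 CPM. Des was at 3.37 and 7.34 CPM and Mmp2 at 3.13 and 7.17 CPM. Igfbp3, the most abundant of the list in NCD, was at 24.7 and 24.9 CPM. The bile duct list summed to 359 and 704 CPM, nearly all of it from Krt8 (141 and 391 CPM), Krt18 (128 and 205 CPM) and Cldn3 (81.5 and 91.2 CPM). In NCD these 3 genes lay at 0.21, -0.01 and 0.16 in log2 central over portal, whereas Epcam, at 2.38 CPM in NCD and 4.94 CPM in HFD, lay at -3.24, so the sum is not a measure of bile duct cells. Endothelial markers summed to 55.3 and 84.3 CPM. The macrophage sum given above was higher in HFD, with Adgre1 at 10.4 and 22.7 CPM and Cd68 at 9.37 and 25.8 CPM. Clec4f, the most abundant of these genes in NCD, was at 54.0 and 49.2 CPM, and Spic was at 1.62 and 1.58 CPM. The B and T cell sum was lower in HFD, with Ighm at 26.4 and 6.66 CPM. The part of depth, of blood and of these cells in the ratios was not tested.

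Within the zones the members kept much of their order. In the portal zone 20.2% of 5414 genes were at least 1.5-fold higher in HFD and 3.99% lower, in the middle zone 20% of 4876 and 4.82%, and in the central zone 18.7% of 4900 and 5.24%. Of the 8 members, 1, 2 and 1 were higher and 0 were lower, Bdh1 in each zone and Acadm in the middle zone. Acadm fell under the fold there when spots were thinned (0.53 and 0.54 with the 2 seeds), by the mean of CPM per spot (0.52) and relative to the median gene (0.42), and passed it in the central zone under 3 other settings. For Bdh1 the zonal ratios were 0.80, 0.86 and 0.87 from portal to central, and for Acadm 0.49, 0.63 and 0.58. For both genes, and for Hadhb, each of the 3 HFD zones stood above each of the 3 NCD zones, and for Acadvl each NCD zone stood above each HFD zone. Bdh1 had the widest range of the members, from 107 CPM in the NCD portal zone to 281 CPM in the HFD central zone, a 2.63-fold difference. Its 6 zone levels, in the order HFD central, middle, portal and NCD central, middle, portal, had no neighbours within counting error of each other. For Acadl the same range was 1.22-fold, and the central zones of both sections (222 and 219 CPM) did not differ beyond counting error.

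**Figure D2:**
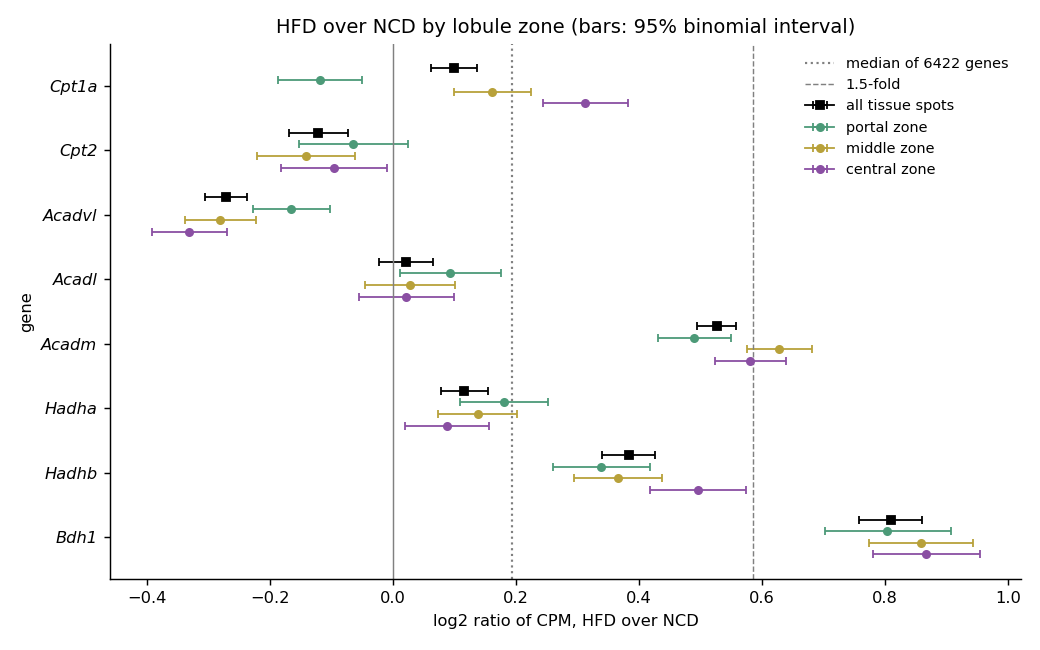
Log2 ratio of CPM, HFD over NCD, for each enzyme over all tissue spots (squares) and in the portal, middle and central zone (circles), with 95% binomial intervals. Bdh1 and Acadm stand to the right in each zone, Acadvl to the left, and Cpt1a runs from -0.12 in the portal zone, a value that turned to 0.02 after thinning, to 0.31 in the central zone.

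The HFD to NCD ratio of Cpt1a differed between the zones. Its level in HFD was 248 CPM in the portal zone, 303 CPM in the middle and 326 CPM in the central zone, whereas in NCD it was 269, 271 and 263 CPM. The NCD zones did not differ from their neighbours beyond counting error, and the portal zone of HFD was the lowest and the central zone of HFD the highest of the 6. The ratio of HFD over NCD was accordingly -0.12 (-0.19 to -0.05) in the portal zone, 0.16 (0.10 to 0.22) in the middle and 0.31 (0.24 to 0.38) in the central zone. Taken relative to the median gene of each zone, a setting added after the data were seen, these values were -0.33, -0.04 and 0.15. With every spot thinned to 3000 UMIs before it was placed, the portal value turned to 0.02 and the central value was 0.27, so the sign in the portal zone depended on this setting, which also leaves out shallow spots, weights spots equally and places them on fewer UMIs.

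The gradient from the portal to the central zone was then compared within each section, where animal and slide are shared. In NCD 6.48% of 2931 genes were at least 1.5-fold higher and 2.18% lower in the central zone, and in HFD 3.97% of 6604 and 2.44%. Of the members, 0 in NCD and 1 in HFD (Bdh1) were higher by that fold and 0 were lower. Bdh1 lay so close to the limit that the HFD count became 0 under 8 of the 12 alternatives, thinning among them, and the NCD count became 1 under 3. The median log2 ratio of central over portal was 0.23 for the members and 0.13 for all genes in NCD, and 0.21 and 0.10 in HFD. The sum of the 6 hepatocyte markers went the other way, from 126809 CPM portal to 91404 CPM central in NCD and from 133355 to 109089 CPM in HFD, with Alb, its most abundant gene, at -0.91 and -0.67 on the log2 scale. Apoa2 was higher centrally in both sections (0.13 and 0.30), and Ttr in NCD (0.06). Red blood cell markers were at 7153 CPM portal and 4775 CPM central in NCD and at 857 and 1465 CPM in HFD. B and T cell markers went from 20.2 to 72.7 CPM in NCD, where Ighm lay at 3.17 in log2 central over portal, and from 13.9 to 18.8 CPM in HFD. Macrophage markers went from 72.9 to 66.9 CPM in NCD and from 80.3 to 108 CPM in HFD, and endothelial markers from 52.3 to 56.2 CPM and from 70.9 to 99.5 CPM. Stellate cell markers were at 56.4 CPM portal and 38.9 CPM central in NCD and at 142 and 126 CPM in HFD, and the bile duct list at 366 and 379 CPM and at 781 and 594 CPM. The median UMIs per spot of the portal and central zones were 6580 and 6891 in NCD and 24171 and 17564 in HFD. The part of these shifts in the gradients was not tested.

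Bdh1 had the steepest gradient of the members in both sections. From portal to central it measured 107, 131 and 154 CPM in NCD and 187, 237 and 281 CPM in HFD, log2 ratios of 0.53 (0.40 to 0.65) and 0.59 (0.54 to 0.64). The gradient of this ketogenic enzyme had intervals that overlapped between the sections, with a difference of 0.06 whose interval ran from -0.07 to 0.20. With spots thinned to 3000 UMIs the ratios were 0.61 and 0.35, a difference of -0.27, and with the second seed -0.11. Its NCD level in the last of 10 position bins, 202 CPM, stood well above the 147 CPM of the bin before it, and the median depth of those bins was 2746.5 and 9043.5 UMIs per spot.

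Without thinning, Cpt1a had the largest difference between the sections in its gradient. Central over portal, its log2 ratio was -0.04 (-0.12 to 0.05) in NCD and 0.40 (0.35 to 0.44) in HFD, a difference of 0.43 (0.34 to 0.53). Among the 2921 genes with at least 500 UMIs in the compared zones of each section, 3.15% had a higher signed difference and 7.63% a larger one in either direction. Of these genes, 1.34% had a gradient at least 1.5-fold higher in HFD and 1.68% at least 1.5-fold lower, and of the 8 members 0 and 0. The difference for Cpt1a lay between 0.25 and 0.49 under the 12 alternatives run, with 0.25 and 0.27 from the 2 seeds of thinning to equal depth. With the same 2 seeds the HFD ratio of Cpt1a was 0.22 and 0.21, under its interval without thinning, and the NCD ratio was -0.03 and -0.06. At the first seed Bdh1 (-0.27) and at the second Hadha (-0.28) had a larger difference in size than Cpt1a.

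Among the other members, Hadhb went from 0.10 in NCD to 0.26 in HFD, a difference of 0.16 (0.05 to 0.27), and Acadm from 0.13 to 0.22, a difference of 0.09 (0.01 to 0.17). Acadvl went the other way, from 0.25 to 0.08, a difference of -0.17 (-0.25 to -0.08). The intervals for Cpt2, Acadl and Hadha held 0, with differences of -0.03, -0.07 and -0.09. With spots thinned to 3000 UMIs, the difference for Hadha was -0.19 with the first seed and -0.28 with the second, and that for Acadl turned to 0.15 and 0.12. The gradient of the 8 genes together was 0.19 in NCD and 0.26 in HFD. Relative to the median gene of each section, Cpt1a (-0.17) and Hadhb (-0.03) in NCD and Acadvl (-0.01) in HFD stood below 0, and Acadm in NCD stood at the median.

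**Figure D3:**
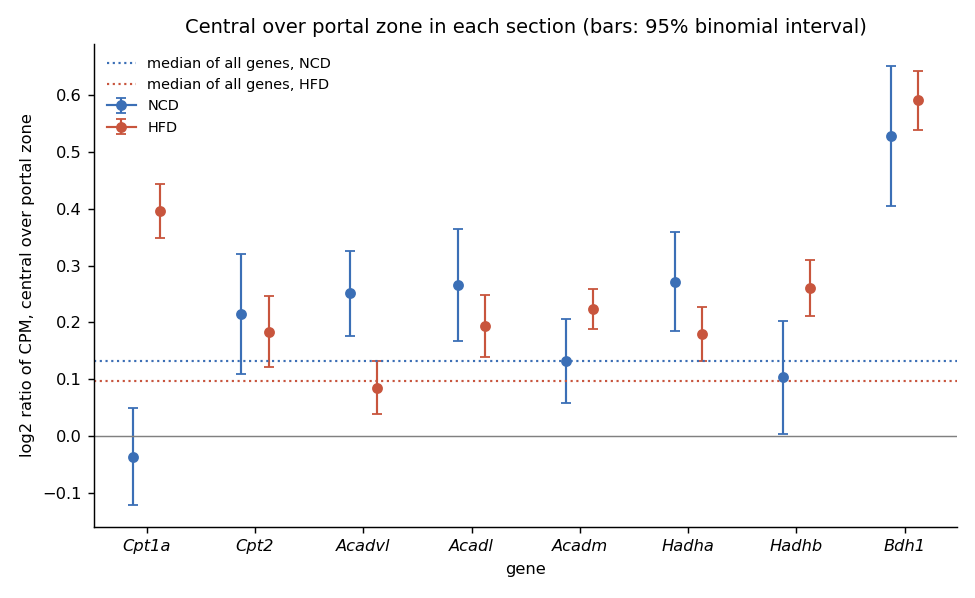
Log2 ratio of CPM, central over portal zone, for each enzyme in the NCD and HFD sections with 95% binomial intervals, and the median over all genes of each section as dotted lines. The sections lie apart for Cpt1a, at -0.04 and 0.40, and have overlapping intervals for Bdh1, at 0.53 and 0.59. After thinning to 3000 UMIs the HFD value of Cpt1a was 0.22 and 0.21 with the 2 seeds.

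The 10 bins of equal size were read without thinning, and the median depth of the first and last HFD bins was 30308 and 18566.5 UMIs per spot. Along these bins, Cpt1a and Bdh1 were higher in each of the 9 steps from portal to central in HFD, from 228 to 332 CPM and from 167 to 298 CPM. Hadha and Hadhb took 8 steps up and 1 down in HFD, Acadvl and Acadm 6 up and 3 down, and Cpt2 and Acadl 5 up and 4 down. In NCD, Cpt1a took 4 steps up and 5 down between 258 and 292 CPM, and Bdh1 7 up and 2 down. Acadm in HFD was at 431 CPM in the first bin and 542 CPM in the last, with most of the difference in the portal bins. Acadvl in NCD had its highest value, 448 CPM, in the last bin, the shallow one named above, and was between 277 and 313 CPM throughout HFD.

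**Figure D4:**
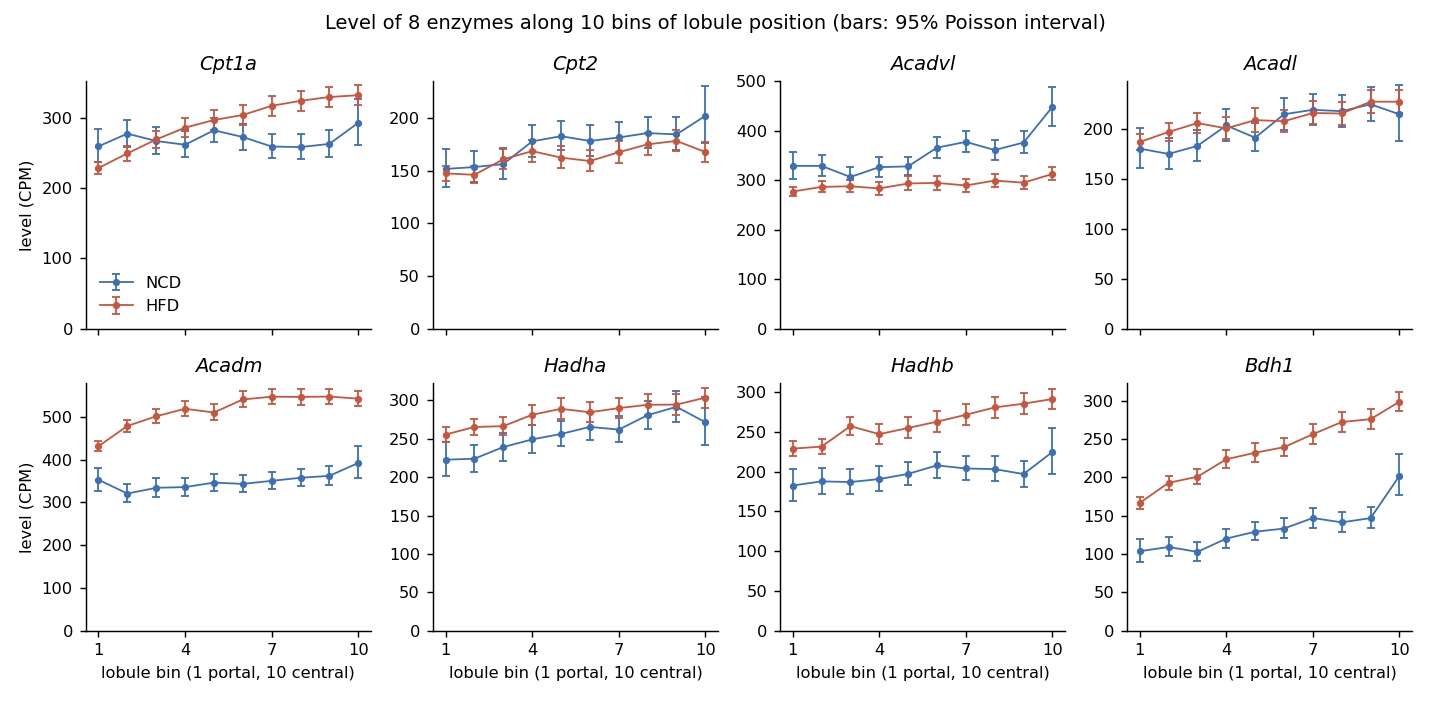
Level in CPM of each enzyme in 10 bins of lobule position, from portal (1) to central (10), in the NCD and HFD sections, with 95% Poisson intervals. In HFD Cpt1a climbs from 228 to 332 CPM while the NCD line stays between 258 and 292 CPM. Spots were not thinned.

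The members were also compared in shape over the 20 bins of both sections. The correlation of each member with the mean profile of the other 7, a description over bins that share libraries and depth, was 0.91 for Bdh1, 0.89 for Hadha and for Hadhb, 0.76 for Acadm, 0.74 for Acadl, 0.72 for Cpt1a, 0.22 for Cpt2 and -0.30 for Acadvl. The bins span both sections, so the difference between the sections enters each correlation, and correlations within a section were not computed. Cpt2 and Acadvl, with the lowest values, were also lower in HFD than in NCD, and a link between these was not tested. Within the sections, the log2 ratios of central over portal of Cpt2 and Acadvl were above 0, at 0.22 and 0.25 in NCD and 0.18 and 0.08 in HFD. Among 2129 genes with at least 5000 UMIs, the gene with the profile most like the mean of the 8 was Acaa1b, a peroxisomal thiolase of beta-oxidation (Pearson r 0.98, 1707 CPM in NCD and 2554 CPM in HFD). It was followed by Prdx3, a mitochondrial peroxiredoxin, Gcgr, the glucagon receptor, and Pex11a, a peroxisome proliferation factor, with r of 0.98, 0.98 and 0.97. The next were Nat8f2, Txn1, 4931406C07Rik, Ldha, Creg1 and Skp1a, each with r of 0.96 or 0.97.

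The rest of the pathway was described with 71 further genes in 6 lists, of which 61 had at least 1000 UMIs over both sections. Against 19.1% and 4.13% of all genes, 9 of the 61 were at least 1.5-fold higher in HFD, 3 were lower and 49 were within that fold. Relative to the median gene, 8 were higher and 6 lower, beside 11.4% and 8.21% of all genes. The minimum was summed over both sections, so genes low in NCD could pass through their HFD counts: Acad12, Aacs and Fgf21 had fewer than 200 UMIs in NCD, and nothing is read from the count of higher genes. Their median log2 ratio was 0.14, beside 0.19 for all genes.

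For acyl-CoA synthesis and carnitine transport, 0 of 12 measured genes were higher and 2 were lower. These were Acsm1, a medium-chain acyl-CoA synthetase, with 351 CPM in NCD and 167 CPM in HFD (-1.07), and Slc27a5, a very-long-chain and bile acid CoA ligase, with 895 and 569 CPM (-0.65). Acsl1, the main long-chain acyl-CoA synthetase of liver, measured 859 and 679 CPM (-0.34), and the carnitine carrier Slc25a20 126 and 115 CPM (-0.13). Acsl4 (-0.15) and Slc27a2 (-0.08) also had ratios below 0. Crot (0.46), Acsm5 (0.43), Acsm3 (0.32), Crat (0.31), Acsl5 (0.14) and Slc22a5 (0.13) had ratios above 0, and the median of the measured genes was 0.03. Acsl3 (-0.67) and the muscle isoform Cpt1b (1.56, with 46 UMIs in NCD and 338 in HFD) were under the minimum of counts. The muscle markers Myh6 and Ckm were at 0 UMIs in NCD, and the 3 muscle markers together held 2 UMIs in NCD and 8 in HFD.

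Among matrix dehydrogenases and electron transfer genes, 1 of 10 was higher, Acad12, an acyl-CoA dehydrogenase family member, with 6.61 and 16.5 CPM (1.32). The genes that pass electrons from these dehydrogenases to the respiratory chain all had ratios below 0: Etfb -0.52, Etfa -0.34 and Etfdh -0.24. Among the 7 hydratase, dehydrogenase, thiolase and auxiliary genes, Hadh, the short-chain hydroxyacyl-CoA dehydrogenase, was higher with 217 and 363 CPM (0.74), and Hsd17b10, which acts on short branched chains, was lower with 304 and 181 CPM (-0.75).

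Of the 7 measured ketone body genes, 2 were higher and 0 lower. Aacs, which activates acetoacetate for lipid synthesis in the cytosol, measured 6.23 CPM in NCD and 36.7 CPM in HFD (2.56), and Slc16a7, a monocarboxylate transporter, 41.9 and 87.3 CPM (1.06). Acat1, the mitochondrial acetoacetyl-CoA thiolase, measured 374 and 430 CPM (0.20), a smaller ratio than the 0.81 of Bdh1. Its central over portal ratio was 0.16 in NCD and 0.28 in HFD, under the 0.53 and 0.59 of Bdh1. Bdh2, a cytosolic enzyme named for its similarity to Bdh1, ran the other way, with -2.11 and -1.87 and a level of 9.02 and 11.6 CPM over the sections. Slc16a6 (1.96, 23 and 223 UMIs) and Oxct1, the enzyme of ketone body use outside the liver (1.14, 55 and 300 UMIs), were under the minimum, and Oxct2a had 0 UMIs.

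Of the 13 measured peroxisomal genes, 2 were higher and 0 lower, among them Abcd2, a very-long-chain acyl-CoA transporter, with 12.1 and 27.3 CPM (1.17). Acaa1b, the thiolase named above, measured 1707 and 2554 CPM (0.58), with central over portal ratios of 0.72 in NCD and 0.69 in HFD. Of the 12 measured regulators, 3 were higher and 0 lower. Lpin1, a phosphatidate phosphatase that also acts with Ppara as a coactivator, measured 12.1 and 166 CPM (3.79, or 13.8-fold), Fgf21, a hepatokine of fasting, 5.20 and 24.1 CPM (2.21), and Acaca, whose product malonyl-CoA inhibits Cpt1a, 14.9 and 29.8 CPM (1.00). Ppara itself measured 13.5 and 15.0 CPM (0.15, interval -0.02 to 0.32). Its central over portal ratio was 0.14 (-0.25 to 0.53) in NCD and 1.03 (0.81 to 1.25) in HFD, and that of Acacb, the acetyl-CoA carboxylase at the mitochondrion, was 0.16 (-0.28 to 0.60) and 1.01 (0.78 to 1.24). In NCD the compared zones held fewer than 500 UMIs of Ppara, of Acacb and of Bdh2, under the minimum for zone ratios.

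**Figure D5:**
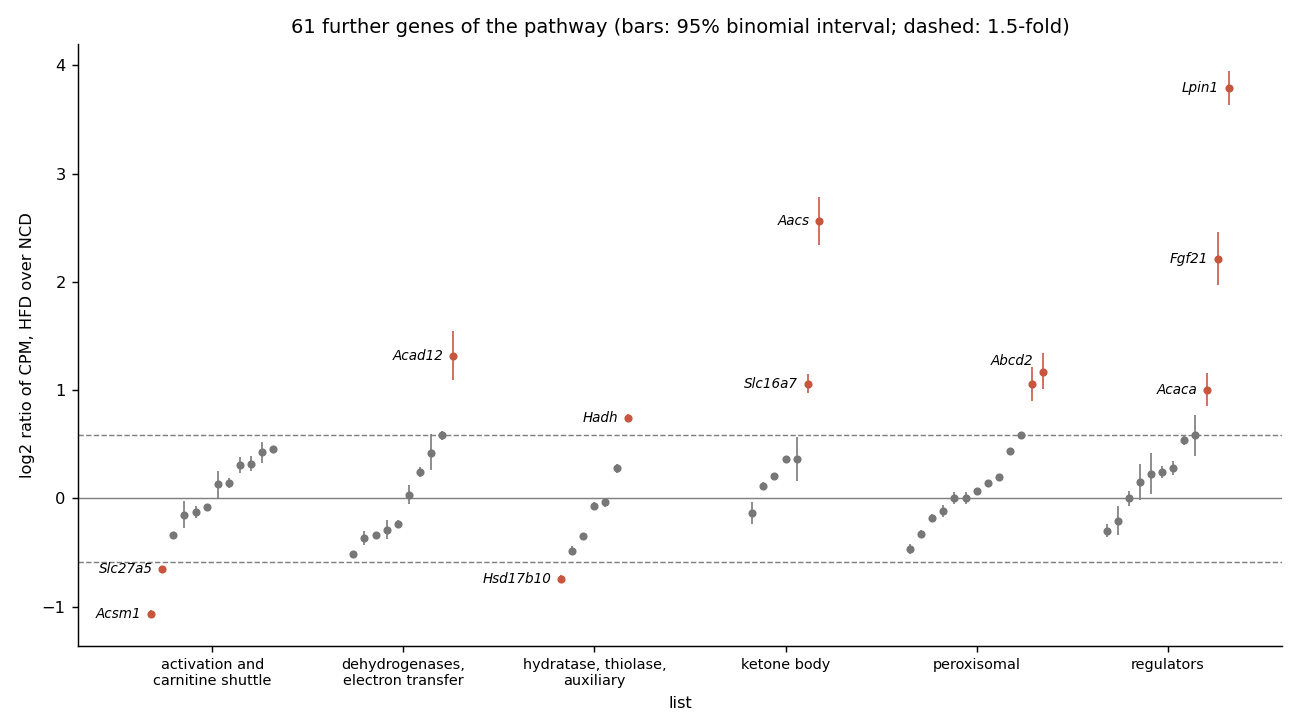
Log2 ratio of CPM, HFD over NCD, for the 61 further pathway genes with at least 1000 UMIs, grouped in 6 lists and sorted within each, with 95% binomial intervals. Of the 61 genes, 9 lie above and 3 below the dashed 1.5-fold lines, with Lpin1 at 3.79 and Acsm1 at -1.07 as the extremes.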

How the data were processed

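The authors deposited UMI count tables (whole-number counts per gene and barcode) from Space Ranger 1.3.1 with the build mm10, as named in their methods and the submitters' processing notes: 1 table of spots over tissue and 1 of all spots of the capture area for each of the 2 sections. The deposited barcode and feature lists gave spot and gene names. The sections shared 3173 spot barcodes, which name positions of the same slide layout and not cells. The authors' other steps on these tables, such as clustering, were not used.

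From the counts, CPM was computed here as 1000000 times the pooled UMIs of a gene over the pooled total of a group of spots, with exact Poisson intervals. Log2 ratios had exact conditional binomial intervals and shares of spots exact Clopper-Pearson intervals, all at 95% and for counting error only. Differences of log2 ratios had intervals from Poisson variances. A fold of 1.5 (0.58 on the log2 scale) was read beside the share of all genes past it, over genes that reached 1000 UMIs in the sections together, or 500 UMIs in the compared zones. Doublets were not called, since spots are not cells. The members, gene lists, zone markers and rules were chosen with earlier results of these data known. Any gene of the 6 lists could be named, beside the 8 members, the list genes with the 5 highest and 5 lowest ratios (Lpin1, Aacs, Fgf21, Slc16a6 and Cpt1b; Acsm1, Hsd17b10, Acsl3, Slc27a5 and Etfb), and the 10 genes most like the members, ranked by Pearson correlation of log2 CPM over 20 bins with 0.5 UMI added. Some genes of the lists are counted but not reported here by name. Alternatives changed the spots used, the total, the depth (thinning to 3000 UMIs, seed 1), the weight of spots and the zone markers. Python 3.11.15, numpy 2.4.6, scipy 1.17.1 and pandas 2.3.3 were used, and the interval and zone steps were tested on simulated data. Gene positions came from GENCODE M21 and promoter windows from RefSeq (GRCm38.p6).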

Additional observations from a re-analysis of the deposited data

Results flagged for a closer look

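Spots outside the tissue outline, which the comparisons do not use, held UMIs of the 8 genes. In the NCD section 1300 such spots held 19.1% of all UMIs of the capture area, with a median of 3383 UMIs per spot, and the 8 genes together measured 1965 CPM there, beside 1940 CPM over tissue. In the HFD section 2.93% of the UMIs lay in 1398 such spots, whose median depth was 1175.5 UMIs, and the 8 genes together measured 1731 CPM, beside 2224 CPM over tissue. Cpt1a measured 303 CPM off tissue in NCD and 225 CPM in HFD, and Bdh1 119 and 168 CPM. The summed level off tissue was thus close to that over tissue in NCD, while Cpt1a over tissue was lower, at 268 CPM. The source of these UMIs was not tested.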

How the results depend on the processing

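The 8 members were recomputed under 18 alternative settings. Of 756 alternative log2 values, 567 lay within the counting interval of the value reported and 189 lay outside it. A turn of sign was counted only for values past the fold, which lie far from 0, and 0 of these turned. Values nearer 0 did change sign. Across all spots, 1 member was at least 1.5-fold higher in HFD, and 0 by the mean of CPM per spot. In the central zone the count of 1 became 2 (Acadm joining Bdh1) with common score limits for both sections, with spots of at least 3000 UMIs and with mitochondrial and abundant genes left out of the total. In the middle zone the count of 2 became 1 with spots thinned to 3000 UMIs, with a second seed, with the mean of CPM per spot and centred on the median gene. For central over portal in HFD the count of 1 (Bdh1, close to the fold) became 0 with score genes scaled to their mean, without Cyp2e1 and Cyp2f2, with the held-out lists, thinned with either seed, with the reduced total, with the mean of CPM per spot and centred. In NCD the count of 0 became 1 with narrower outer zones, thinned with the first seed and with the mean of CPM per spot. Of the pathway genes, 3 were lower, 1 at 2-fold and 6 after centring. The second seed, the centred zone ratios and the mean of CPM over spots of at least 1000 UMIs were chosen after seeing the data. Over all tissue spots, Acadl ran from -0.17 to 0.05 across settings and Cpt1a from -0.09 to 0.16. Hadha ran from -0.08 to 0.17 and the 8 genes together from -0.00 to 0.22, so these values changed side. Bdh1 stayed between 0.55 and 0.84, Acadm between 0.11 and 0.57 and Acadvl between -0.49 and -0.26. The difference of the Bdh1 gradient ran from -0.27 to 0.14. The causes were not tested. Depth limits the NCD section more, with 56334 UMIs of the members beside 160412 in HFD. No paired analysis was possible because each diet had 1 section.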
